A study of Mus musculus with 4 samples.

Results

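The genes described here encode subunits of the ATP-dependent chromatin remodelling complexes, 40 genes taken by name from the BAF, PBAF, non-canonical BAF, ISWI, CHD, INO80, SRCAP and TIP60 complexes together with Atrx and Hells. The choice followed complex membership. All 40 were among the 16655 genes that the count tables share, and 38 had enough reads to be tested. The RNA came from microglia, the tissue macrophages of the brain, isolated by cell sorting from C57BL/6 mice at embryonic day 14. Arid1a cKO embryos carried a conditional knockout of Arid1a, and Arid1a fl/fl embryos, the controls, carried the floxed alleles. The labels list 4 samples, replicates 1 and 2 of Arid1a cKO and replicates 5 and 6 of Arid1a fl/fl. Values were used for 3 libraries, Arid1a cKO replicate 2 (the knockout library) and both controls (control 5 and control 6). The other knockout sample, replicate 1, was not analysed here. No Cre driver is named in the labels, and it is not stated whether embryos were pooled.

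Chromatin remodellers use the energy of ATP to slide, eject or exchange nucleosomes, and each complex is built around a SNF2-type ATPase. BAF, the mammalian SWI/SNF complex, comes in 3 assemblies: canonical BAF carries Arid1a or Arid1b and a Dpf subunit, PBAF carries Arid2, Pbrm1, Brd7 and Phf10, and non-canonical BAF carries Brd9. Many positions in BAF can be filled by either of 2 or 3 paralogs, and some paralogs are exchanged as neural progenitors become neurons. The other families space nucleosomes (ISWI), act within repressive or elongation machinery (CHD), or deal with the histone variants H2A.Z and H3.3 (INO80, SRCAP, TIP60 and ATRX).

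Counted reads totalled 17262261 in the knockout library, against 18608979 in control 5 and 13774075 in control 6. The libraries carried microglial RNA: all 10 microglial markers were detected in each, and their summed level was 15152 CPM in the knockout library (CPM, the read count scaled to library size by TMM factors), against 20552 in control 5 and 29910 in control 6. Of those 10 markers, 9 were below both controls. Neuronal markers summed to 171 CPM in the knockout library, against 222 and 241 CPM in controls 5 and 6. Neural progenitor markers summed to 110.0 CPM, against 109 and 134 CPM, with Nes alone at 96.9 CPM, against 96.9 and 113 CPM. Endothelial markers summed to 26.5 CPM, against 39.3 and 36.5 CPM, and erythroid markers to 38.6 CPM, against 37.6 and 44.4 CPM. Monocyte and neutrophil markers summed to 203 CPM, against 162 and 193 CPM. These lists were mixed in direction. Above and below both controls were 4 and 2 progenitor, 2 and 2 endothelial, 2 and 1 erythroid, and 3 and 1 monocyte and neutrophil markers. Control 5 stood apart in the number of genes without a read: 175 of the shared genes were at 0 in the knockout library, against 2696 in control 5 and 1219 in control 6. The tables set the knockout library beside each control and held few genes with very few knockout reads, so the libraries did not enter alike. Library ratios also moved with the GC content of the transcript. Over the 9706 genes with a transcript and a mean of at least 5 CPM, Pearson's r across genes was 0.28 (Spearman's rho 0.35) for the knockout library over control 5, 0.12 (0.18) for it over control 6, and -0.23 (-0.27) for control 5 over control 6. Genes are not independent replicates, and these 3 ratios share libraries.

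No remodelling gene passed the test of Arid1a cKO against Arid1a fl/fl. With edgeR's quasi-likelihood test at an adjusted p under 0.05, 6 of 15236 genes were called, or 0.0394% of genes, and 0 of the 38 tested members. At an unadjusted p under 0.05, edgeR passed 914 genes, or 6.00% of genes, and 1 member, Chd7. DESeq2 called 223 of 10510 genes with an adjusted p, or 2.12% of genes, and 0 members. The smallest adjusted p of a member was 0.720 in edgeR. The fit had 1 residual degree of freedom, which came from the 2 controls, and the single knockout library was assumed to vary as they do. Both tests also draw the spread of each gene toward a trend over all genes, so each p-value rests partly on other genes. Separate animals are not stated for the samples, so these p-values reflect a spread among samples that may be technical.

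By place relative to the controls, 19 of the 38 tested members (50%) were below both controls in the knockout library, against 31.1% of all genes tested. Above both controls were 9 members (23.7%), against 38.0% of all genes, and 10 lay between them. Smarcd3, among those above (14 reads, against 0 and 6), was kept for testing only through the knockout library. Bcl7c, among those below (1 read, against 35 and 32), was kept only through the controls. The way each was kept favours its direction. The median log2 fold change of the members was -0.16, against 0.05 over all genes tested. These values depended on the scaling: with library totals, 15 members were below both controls and 14 above. The medians were then -0.034 for the members and 0.17 for all genes. Shares of all genes below and above both controls were not taken with library totals. Without control 6, the median of the members was -0.10. At a mean of 5 CPM or more the difference from the background was smaller: 16 of 33 members (48.5%) were below both controls, against 35.3% of genes at that level, and 8 (24.2%) were above both, against 35.8%. A margin of at least 0.3 on the log2 scale over each control left 8 members lower, 24.2% of the 33 against 20.6% of all genes, and 3 members higher, 9.09% against 19.5%. The 8 lower ones were Arid1a, Smarca2, Ss18l1, Phf10, Pbrm1, Brd9, Chd8 and Ino80, and the 3 higher ones were Chd7, Smarca4 and Smarcd1. The counts over members were given no test of their own. In bulk RNA, fewer cells of a type and less RNA per cell cannot be told apart.

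**Figure D1:**
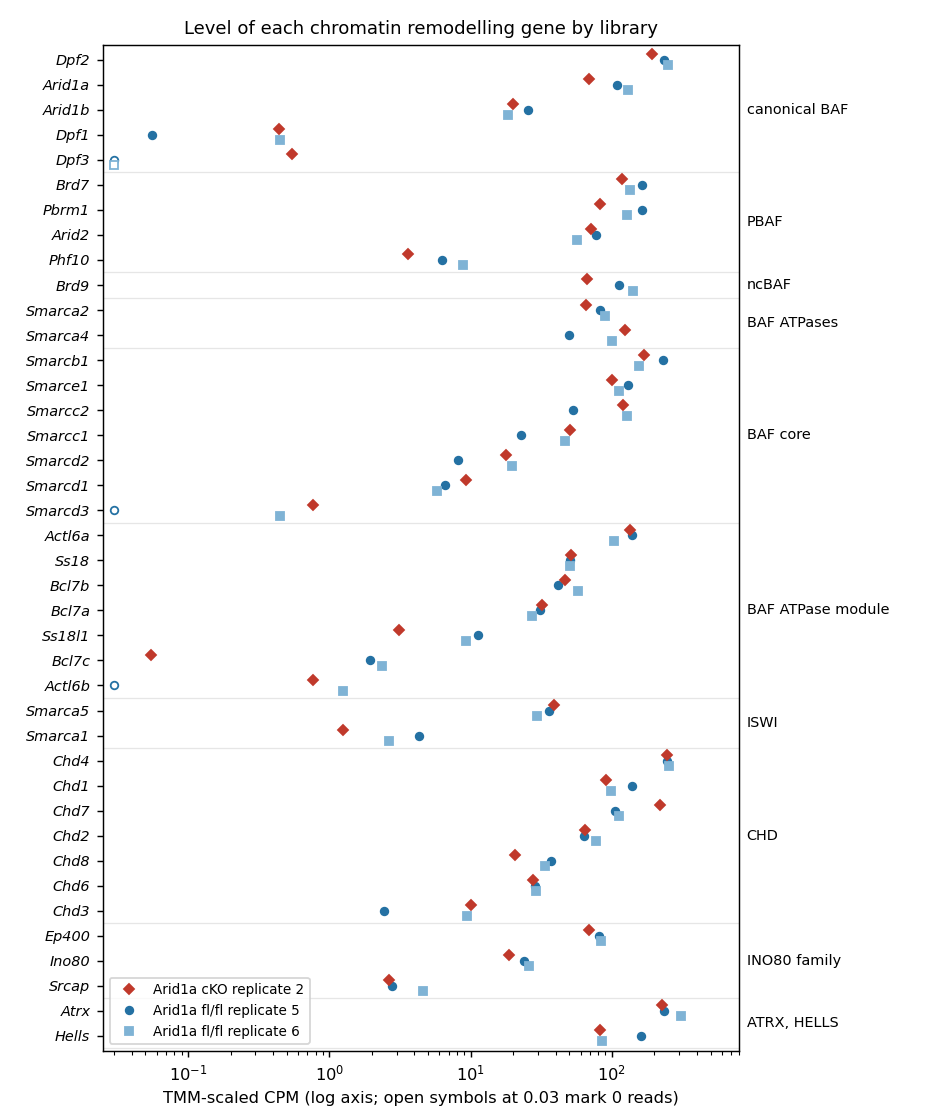
TMM-scaled CPM of each of the 40 genes on a log axis, by complex, in the Arid1a cKO library (diamonds) and the Arid1a fl/fl replicates 5 (circles) and 6 (squares), with open symbols for 0 reads. Points are single libraries and carry no error bar. The Chd7 diamond, at 218 CPM, lies to the right of both controls at 106 and 113 CPM, while those of Arid1a, Pbrm1, Brd9 and Ss18l1 lie to the left of theirs.

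**Figure D2:**
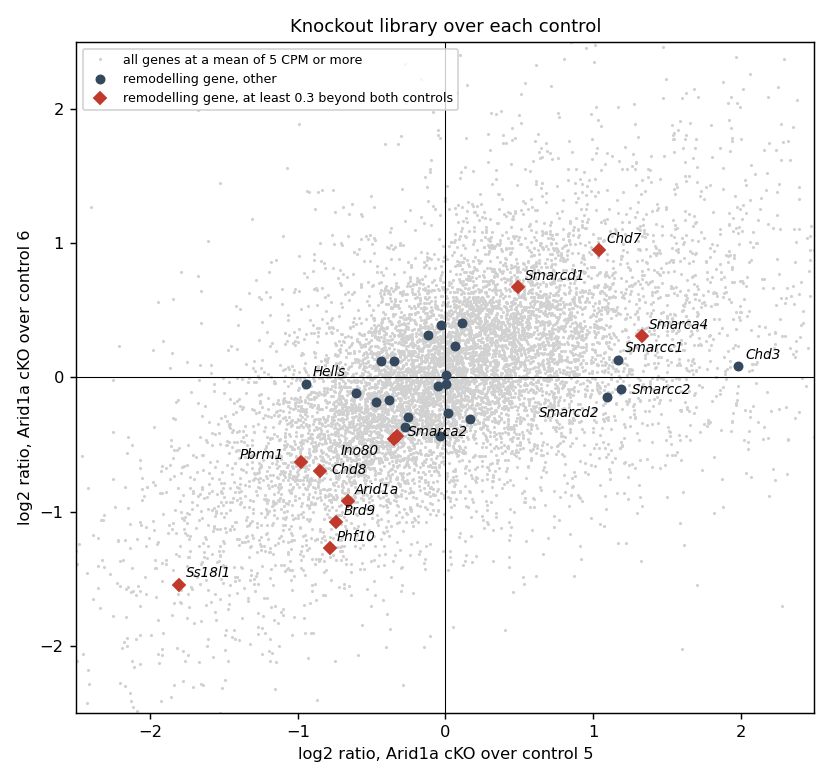
Log2 ratio of the Arid1a cKO library over control 5 (horizontal axis) and over control 6 (vertical axis) for genes at a mean of 5 CPM and above, with the 33 remodelling genes in large symbols and all 9711 genes in grey, genes beyond 2.5 on either axis not drawn. Both axes share the knockout library. Red diamonds mark the 11 members at least 0.3 beyond both controls, 8 of them at the lower left and 3 at the upper right.

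The targeted gene, Arid1a, encodes BAF250A, the DNA-binding ARID subunit of canonical BAF. It lies on the minus strand of chromosome 4 (GRCm38, 133679008 to 133756769), and its merged exons span 11.5 kb. The promoters of Arid1a and of 3 other genes, Brd9, Pbrm1 and Smarca4, are shown because their fitted fold changes were the largest in size among the BAF genes at a mean of over 50 CPM with a window in the RefSeq table, and all lay outside both controls. Each is the 250 bases before the RefSeq start on GRCm38.p6, read 5′ to 3′ on the gene's own strand. The windows are chr4:133756770-133757019 on the minus strand for Arid1a, chr13:73937561-73937810 on the plus strand for Brd9, chr14:31018888-31019137 on the plus strand for Pbrm1 and chr9:21615919-21616168 on the plus strand for Smarca4. Capitals mark matches on either strand to CCGGAA (the ETS core), CCAAT (the CCAAT box), TATAAA (the TATA box), GCATGCGC (an NRF1 motif) or GGGCGG (the GC box).
Arid1a: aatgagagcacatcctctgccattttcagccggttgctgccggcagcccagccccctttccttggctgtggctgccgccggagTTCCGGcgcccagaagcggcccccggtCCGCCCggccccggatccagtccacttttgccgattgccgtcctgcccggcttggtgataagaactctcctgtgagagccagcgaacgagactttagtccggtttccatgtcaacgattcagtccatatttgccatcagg
Brd9: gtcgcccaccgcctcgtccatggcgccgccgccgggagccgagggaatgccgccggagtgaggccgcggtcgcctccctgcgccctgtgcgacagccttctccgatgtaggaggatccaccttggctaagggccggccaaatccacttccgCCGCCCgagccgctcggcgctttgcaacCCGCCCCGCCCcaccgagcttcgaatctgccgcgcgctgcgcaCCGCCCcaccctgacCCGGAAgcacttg
Pbrm1: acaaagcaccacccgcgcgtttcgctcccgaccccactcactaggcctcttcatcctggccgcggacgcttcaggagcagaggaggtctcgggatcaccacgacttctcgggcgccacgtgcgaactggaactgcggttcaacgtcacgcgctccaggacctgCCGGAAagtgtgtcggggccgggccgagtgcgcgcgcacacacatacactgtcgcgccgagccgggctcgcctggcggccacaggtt
Smarca4: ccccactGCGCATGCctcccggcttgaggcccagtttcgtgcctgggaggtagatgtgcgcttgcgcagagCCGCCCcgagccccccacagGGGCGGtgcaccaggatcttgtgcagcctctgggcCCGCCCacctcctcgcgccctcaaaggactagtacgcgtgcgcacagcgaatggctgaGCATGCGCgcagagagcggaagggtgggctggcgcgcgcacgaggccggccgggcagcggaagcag
The first 3 hold the ETS core, and Smarca4 holds the NRF1 motif and several GC boxes. A match describes these letters and does not show binding.

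Arid1a was counted 1258 times in the knockout library, against 1952 times in control 5 and 1760 times in control 6. On the TMM scale this was 68.8 CPM (95% Poisson interval 65.1 to 72.7, counting error only), against 109 and 130.4 CPM, a control mean of 119.7 ± 15.1 CPM (SD, n = 2). The knockout library was thus below both controls, at 0.575 times their mean, and Arid1a reads were still present. The log2 fold change was -0.80 (SE 0.41) with an adjusted p of 0.901 in edgeR. Counts per gene cover the whole transcript and do not separate a deleted exon from the exons that remain, so they do not measure how completely the allele was recombined. Which exons are floxed is not given in the sources used here.

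Arid1b, the alternative ARID subunit of canonical BAF, had 20.1 CPM in the knockout library, against 25.6 and 18.4 CPM in controls 5 and 6, which places it between them. Per kb of exon it was the scarcer paralog in every library: 1.59 CPM per kb for Arid1b and 6.00 for Arid1a in the knockout library, against 2.03 and 9.50 in control 5 and 1.46 and 11.4 in control 6. Of the reads of the pair, Arid1a took 77.4% in the knockout library (exact 95% interval 75.3 to 79.4), against 81.0% (79.3 to 82.5) in control 5 and 87.6% (86.1 to 89.0) in control 6. That share, which does not depend on library scaling, was below both controls, by 6.87 percentage points from their mean. With 1 library against 2, the smallest p of an exact permutation test is 1 in 3, so shares were not tested.

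The Dpf genes encode the plant-homeodomain subunits of canonical BAF, and Dpf2, the widely expressed form, had the highest control mean of the 38 tested genes per kb. It had 193 CPM in the knockout library, against 232 and 249 CPM, below both controls. That mean, 37.0 CPM per kb, was higher than that of 91.2% of the genes tested, while in the knockout library Dpf2 stood at 29.6 CPM per kb, under Actl6a at 34.8 and Chd4 at 30.8. Dpf1 and Dpf3, forms known from neurons and from muscle, were too low to be tested. Dpf1 had 8 reads in the knockout library, against 1 read in control 5 and 6 reads in control 6. Dpf3 had 10 reads in the knockout library and 0 in both controls. That is 2.81-fold higher when each control is set at 3 reads and the 10 reads are taken as exact. The knockout interval was 0.262 to 1.01 CPM, against 0.195 CPM for that floor. A gene without control reads can enter only through its knockout reads, which fixes its direction. Control 5 had no read for 2696 genes, and whether this bears on Dpf3 was not tested.

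PBAF is marked by Pbrm1, a protein with several bromodomains, by Arid2, Brd7 and Phf10. Of these 4 genes, 3 were below both controls and 0 above, with a median log2 fold change of -0.58. Over all genes tested, 31.1% were below both controls and 38.0% above. By the 0.3 margin over each control, 2 of the 4 were lower. Pbrm1 had 82.6 CPM in the knockout library (1509 reads, interval 78.4 to 86.8), against 163 CPM (2919 reads) in control 5 and 128 CPM (1728 reads) in control 6. Phf10, which takes the place of a Dpf subunit in PBAF, had 3.61 CPM (66 reads, interval 2.79 to 4.59), against 6.31 CPM (113 reads) and 8.89 CPM (120 reads). Both genes were therefore below both controls by more than the controls differed. The log2 fold changes were -0.82 (SE 0.40) for Pbrm1 and -1.07 (SE 0.98) for Phf10, with adjusted p of 0.889 and 1.00 in edgeR. Brd7, a bromodomain subunit, had 118 CPM in the knockout library, against 163 and 133 CPM. Arid2, the ARID subunit of PBAF, had 70.9 CPM, against 76.8 and 56.8 CPM, and so lay between the controls. Set beside the other ARID genes per kb, Arid2 made up 46.5% of the summed level of Arid1a, Arid1b and Arid2 in the knockout library, against 38.3% in control 5 and 29.2% in control 6, and Arid1a made up 42.3%, against 50.8% and 62.7%.

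Brd9, the bromodomain subunit that defines non-canonical BAF, was the BAF subunit at a mean of over 50 CPM with the most negative fold change. It had 67.0 CPM in the knockout library (1225 reads, interval 63.3 to 70.9), against 112 CPM (2009 reads) in control 5 and 142 CPM (1914 reads) in control 6, a control mean of 127 ± 20.9 CPM (SD, n = 2). Its log2 fold change was -0.92 (SE 0.41), with an unadjusted p of 0.056 and an adjusted p of 0.850 in edgeR. Microglial markers as a list were also lower in the knockout library (15152 CPM, against 20552 and 29910 CPM), and their part in these differences was not tested.

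The catalytic subunit of BAF is either Smarca4 (BRG1) or Smarca2 (BRM), and these paralogs lay on opposite sides of the controls. Smarca4 had 125 CPM in the knockout library (2279 reads, interval 119.6 to 129.9), against 49.6 CPM (888 reads) in control 5 and 101 CPM (1361 reads) in control 6. The knockout library was above both controls, by 2.52-fold over control 5 but only 1.24-fold over control 6. Smarca2 had 65.4 CPM (1195 reads, interval 61.7 to 69.2), against 82.2 CPM (1472 reads) and 88.7 CPM (1198 reads), below both. The log2 fold changes were 0.73 (SE 0.49) for Smarca4 and -0.39 (SE 0.40) for Smarca2, with adjusted p of 0.959 and 1.00 in edgeR. Smarca4 took 65.6% of the reads of the pair in the knockout library (64.0 to 67.2), against 37.6% (35.7 to 39.6) in control 5 and 53.2% (51.2 to 55.1) in control 6. The gap between the controls was larger than that between the knockout library and control 6. Per kb of merged exon, Smarca4 was the more abundant paralog in all 3 libraries. It stood at 19.3 against 4.58 for Smarca2 in the knockout library, 7.66 against 5.76 in control 5 and 15.6 against 6.22 in control 6. That order depends on the length used, since merged exons span 14.3 kb for Smarca2 and 6.475 kb for Smarca4. Their longest transcripts have 5921 and 6376 bases, and by those lengths Smarca2 would be the higher in control 5.

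The core of BAF is formed by Smarcb1, the Smarcc scaffolds, the Smarcd subunits and Smarce1, and here the controls differed most from each other. Of the 7 core genes, 3 were above both controls, 1 below and 3 between. Over all genes tested, 38.0% were above both controls and 31.1% below. The 3 above include Smarcd3, kept for testing only through its 14 knockout reads, which favours that direction. The 7 core genes had a median log2 fold change of 0.42. That median rests on control 5: the median log2 ratio was 1.10 over control 5 and 0.12 over control 6. The scaffold Smarcc1 (BAF155) had 51.0 CPM in the knockout library, against 22.6 CPM in control 5 and 46.4 CPM in control 6. The scaffold Smarcc2 (BAF170) had 120.5 CPM, against 52.8 and 128 CPM, and Smarcd2 (BAF60B) had 17.7 CPM, against 8.21 and 19.6 CPM. In each of these 3 genes the knockout library stood close to control 6 while control 5 stood apart. As a share of its pair, Smarcc1 differed little: it took 29.7% of the reads of Smarcc1 and Smarcc2 in the knockout library, against 30.0% in control 5 and 26.6% in control 6.

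Smarcd1 (BAF60A) was the core gene above both controls by the 0.3 margin, at 9.30 CPM in the knockout library (170 reads, interval 7.95 to 10.8), against 6.59 CPM (118 reads) and 5.78 CPM (78 reads). Its log2 fold change was 0.59 (SE 0.85), with an adjusted p of 1.00 in edgeR. Relative to genes of like GC content it stood at -0.04 over control 5 and 0.50 over control 6, a mean of 0.23, and so not above both. Of its exon bases, 12.7% lie under 2 genes on the opposite strand. Per the labels, the libraries were made with an Illumina TruSeq RNA kit, a type that does not mark strand, so reads of such overlaps cannot be told apart. Its share of the Smarcd1 and Smarcd2 reads, 34.5% in the knockout library, lay between 44.5% in control 5 and 22.8% in control 6. Smarcd3 (BAF60C) was close to silent, with 14 reads in the knockout library, against 0 reads in control 5 and 6 reads in control 6, and 48.2% of its exon bases lie under genes of the opposite strand. Smarcb1, the core subunit known as a tumour suppressor in human rhabdoid tumours, had 170.2 CPM, against 231 and 156 CPM, between the controls. Smarce1 (BAF57), an HMG-box subunit, had 99.9 CPM, against 130.3 and 112 CPM, below both.

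The ATPase module joins the motor to actin-like and accessory proteins, and it holds pairs in which 1 member is known as the neuronal form. Of its 7 genes, 2 were below both controls, 2 above and 3 between. Over all genes tested, 31.1% were below both controls and 38.0% above. The 2 above, Ss18 and Bcl7a, were within counting error of a control. Knockout intervals were 47.8 to 54.4 CPM for Ss18, which holds both controls, and 29.6 to 34.9 CPM for Bcl7a, which holds control 5. Actl6a (BAF53A), the general form, had 135 CPM in the knockout library, against 138 and 103 CPM. Actl6b (BAF53B), the neuronal form, had 14 reads, against 0 and 17. Actl6a thus supplied nearly all reads of that pair in each library: 99.4% in the knockout library, against 100% and 98.8%.

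Ss18, the general form of the next pair, had the flattest profile of the module, at 51.1 CPM in the knockout library, against 50.9 and 50.5 CPM. Its neuronal counterpart Ss18l1 (CREST), a calcium-responsive coactivator, had 3.12 CPM (57 reads, interval 2.36 to 4.04), against 11.2 CPM (201 reads) and 9.33 CPM (126 reads). Ss18l1 had the most negative fold change of the 33 members at 5 CPM or more, -1.72 on the log2 scale (SE 0.91), with an unadjusted p of 0.0948 and an adjusted p of 0.923 in edgeR. Ss18 accordingly took 94.2% of the reads of the pair in the knockout library (92.6 to 95.6), against 81.9% (79.5 to 84.1) in control 5 and 84.4% (81.7 to 86.8) in control 6. These intervals cover counting error and no variation between samples. For Arid1a and Arid1b, those of the controls do not overlap each other (79.3 to 82.5 and 86.1 to 89.0). Neuronal markers were also lower in the knockout library, with 6 of 10 below both controls and 2 above, at a sum of 171 CPM, against 222 and 241 CPM. Their part in the Ss18l1 difference was not tested.

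The Bcl7 proteins are small accessory subunits. Bcl7c was nearly without reads in the knockout library, with 1 read, against 35 in control 5 and 32 in control 6. On the CPM scale this was 0.0547, against 1.95 and 2.37, a ratio of 0.0256 over the pooled controls with a counting interval of 0.000640 to 0.148. Its adjusted p in edgeR was 0.931, at a level under 5 CPM. Bcl7a, its paralog, had 32.2 CPM, against 30.8 and 27.3 CPM, and took 99.8% of the reads of Bcl7a and Bcl7c (99.1 to 100), against 94.0% (91.8 to 95.8) and 92.0% (88.9 to 94.5). Bcl7b had 46.6 CPM, between 41.5 CPM in control 5 and 57.6 CPM in control 6.

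**Figure D3:**
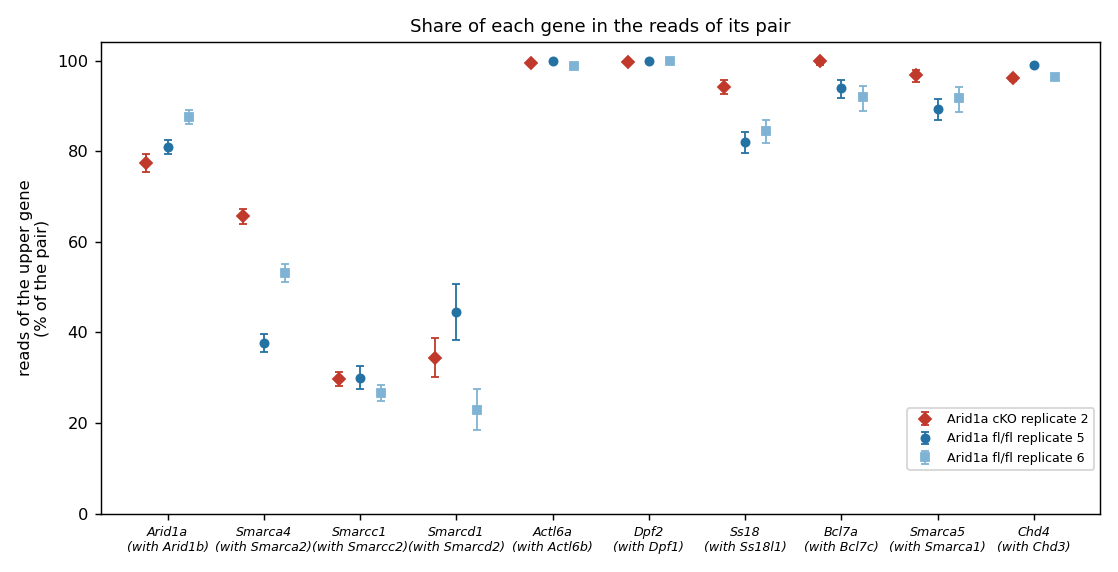
Share of the upper gene in the reads of each of 10 paralog pairs (vertical axis, percent), in the Arid1a cKO library (diamonds) and in Arid1a fl/fl replicates 5 (circles) and 6 (squares). Bars are exact 95% binomial intervals and cover counting error only. Smarca4 and Smarca2 are the pair with the widest spread, at 65.6% in the knockout library, against 37.6% in control 5 and 53.2% in control 6.

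The ISWI ATPases slide nucleosomes into regular arrays. Smarca5 (SNF2H), the general form, had 39.1 CPM in the knockout library, against 36.1 and 29.4 CPM, above both. Smarca1 (SNF2L), known for its neural expression, had 1.26 CPM (23 reads), against 4.30 CPM (77 reads) and 2.67 CPM (36 reads), below both at a low level. Smarca5 took 96.9% of the reads of the pair in the knockout library (95.4 to 98.0), against 89.4% (86.9 to 91.5) and 91.7% (88.7 to 94.1). Ss18, Bcl7a and Smarca5, each the more abundant gene of its pair, took a larger share in the knockout library than in either control. Arid1a, Dpf2 and Chd4, also the more abundant of their pairs, took a smaller share there than in either control. Dpf2 took 99.77% of the reads of Dpf2 and Dpf1, against 99.98% in control 5 and 99.82% in control 6. Chd4 took 96.1% of the reads of Chd4 and Chd3, against 99.0% and 96.4%.

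Among the 7 CHD remodellers, which carry chromodomains, 3 were below both controls, 2 above and 2 between. Over all genes tested, 31.1% were below both controls and 38.0% above. For Chd6, counted as below, the knockout interval (25.3 to 30.1 CPM) held both controls. For Chd3, counted as above, the interval (8.66 to 11.6 CPM) held control 6. Chd7, whose human counterpart is mutated in CHARGE syndrome, had the smallest p of any member. It had 218 CPM in the knockout library (3987 reads, interval 211 to 225), against 106 CPM (1897 reads) in control 5 and 113 CPM (1521 reads) in control 6, a control mean of 109 ± 4.77 CPM (SD, n = 2). The ratio was 2.06-fold over control 5 and 1.94-fold over control 6, so the controls differed little from each other. The log2 fold change was 1.00 (SE 0.36), with an unadjusted p of 0.0236 and an adjusted p of 0.720 in edgeR. Per kb, Chd7 made up 24.2% of the summed CHD level in the knockout library, against 12.2% in control 5 and 13.3% in control 6.

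Chd8, a remodeller linked to autism in humans, went the other way, with 20.7 CPM in the knockout library (378 reads, interval 18.6 to 22.9), against 37.4 CPM (669 reads) and 33.6 CPM (453 reads). Its log2 fold change was -0.78 (SE 0.51) with an adjusted p of 0.959 in edgeR, and it too had a small gap between the controls. Chd4, the ATPase of the NuRD complex, was the most abundant CHD gene per kb and nearly level, at 247 CPM in the knockout library, against 246 and 256 CPM. Its paralog Chd3 had 10.1 CPM, against 2.46 and 9.48 CPM, so control 5 again stood apart. Chd1, which works with transcription elongation, had 90.5 CPM, against 138 and 97.9 CPM, below both. Its gene model in the files runs from 15704967 to 17394898 on chromosome 17, unlike that of GENCODE M21, and whether its count holds reads of other genes was not tested. Chd2 had 64.6 CPM, against 63.9 and 77.6 CPM, with 18.4% of its exon bases shared with a gene on the same strand, and Chd6 had 27.6 CPM, against 28.6 and 28.9 CPM.

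The ATPases of the INO80 family deal with the histone variant H2A.Z. All 3 were below both controls, as were 31.1% of all genes tested. Ino80 had 18.8 CPM in the knockout library (344 reads, interval 16.9 to 20.9), against 24.0 CPM (429 reads) and 25.9 CPM (350 reads). Its log2 fold change was -0.41 (SE 0.55) with an adjusted p of 1.00 in edgeR. Ep400, the p400 ATPase of the TIP60 complex, had 68.5 CPM, against 81.5 and 83.9 CPM. Srcap had 2.63 CPM (48 reads, interval 1.94 to 3.48), against 2.79 CPM (50 reads) and 4.59 CPM (62 reads). Control 5 thus lay within the counting interval of the knockout library. The low level of Srcap is uncertain, since 61.7% of its exon bases are shared with another gene model on the same strand, between which this kind of counting cannot divide reads.

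Atrx, which works with Daxx to place the histone variant H3.3, had 228 CPM in the knockout library, against 234 and 308 CPM. Hells (LSH), a remodeller tied to DNA methylation and most abundant in dividing cells, had 82.8 CPM, against 159.6 and 85.5 CPM. Both were below both controls, but the knockout library was close to control 5 for Atrx and close to control 6 for Hells. Markers of the G2 and M phases summed to 1305 CPM in the knockout library, against 1613 and 1501 CPM, with 8 of 12 below both controls and 1 above. Markers of S phase summed to 1698 CPM, against 1783 and 1524 CPM, with 3 below both and 3 above. Their part in the Hells levels was not tested.

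The gap between the controls differed among the members. The controls differed by at least 1.5-fold in 6 of the 33 members at 5 CPM or more (18.2%), against 36.7% of all genes at that level. Of these 6, Smarca4, Smarcc1 and Chd3 were above both controls in the knockout library, Hells was below both, and Smarcc2 and Smarcd2 lay between. Control 5 was the lower control for 5 of the 6. The 5 had transcripts of 48.4% to 56.9% GC, while Hells, which was higher in control 5, had 37.7%. Relative to genes of like GC content, the log2 ratio of control 5 over control 6 was -0.72 for Smarca4 (-1.02 before). It was -1.06 for Smarcc1 (-1.03), -1.06 for Smarcc2 (-1.27), -0.90 for Smarcd2 (-1.24), -1.59 for Chd3 (-1.90) and 0.69 for Hells (0.90). What set these gaps was not tested. Over the 33 members, Pearson's r between GC content and the log2 ratio was 0.48 (Spearman's rho 0.46) for the knockout library over control 5, 0.14 (0.12) for it over control 6 and -0.49 (-0.42) for control 5 over control 6. Over all genes of more than 55% GC, the median log2 ratio was 0.53 over control 5 and 0.19 over control 6, and of less than 45% GC it was -0.30 and -0.16. Ratios were also taken relative to a smoothed curve (lowess) of the ratio on GC content, an adjustment chosen after seeing the data. With it, 14 of the 33 members (42.4%) were below both controls, against 34.6% of all genes at that level. Above both were 7 members (21.2%), against 34.5%. At the 0.3 margin, 11 members were then lower (33.3%, against 19.0% of all genes) and 2 higher (6.06%, against 18.0%). The 8 lower members stayed lower by that margin and were joined by Bcl7b, Dpf2 and Ep400, while the higher ones were Chd7 and Smarca5. Arid1a, with 56.7% GC, then stood at -1.15 over control 5 and -1.08 over control 6. Smarca4 stood at 0.90 and 0.16, Chd7 at 0.88 and 0.92, Pbrm1 at -0.67 and -0.47, and Brd9 at -0.72 and -1.06. Smarca4 thus fell short of the 0.3 margin over control 6, and Smarcd1, at -0.04 over control 5 and 0.50 over control 6, no longer lay above both controls.

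**Figure D4:**
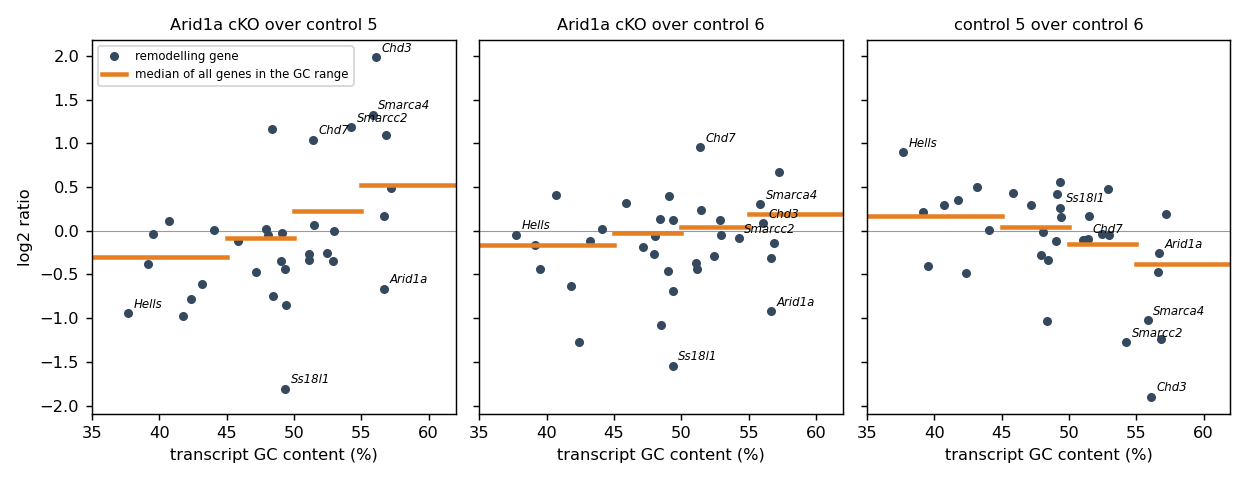
Log2 ratio against transcript GC content (percent) for the 33 remodelling genes at a mean of 5 CPM or more, for Arid1a cKO over control 5, Arid1a cKO over control 6, and control 5 over control 6. Orange lines give the median of all genes in each GC range, from less than 45% to more than 55%. The lines climb with GC content in the first panel, from -0.30 to 0.53, and descend in the third, from 0.16 to -0.38, and the members lie about them with Arid1a under the line in the first panel and in the second.

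Levels can be ordered per kb of exon over the controls. After Dpf2 at 37.0 CPM per kb came Chd4 at 31.3, Actl6a at 31.0, Brd7 at 28.3, Smarcb1 at 24.4 and Bcl7b at 20.6, with Chd4 and Actl6a closer than the spread between the controls. Arid1a stood at 10.4 CPM per kb, higher than 73.6% of the genes tested, and Arid1b at 1.75, higher than 38.8%. At the low end were Bcl7c at 0.299, Srcap at 0.234, Actl6b at 0.148 and Smarcd3 at 0.0434 CPM per kb, the last of these higher than 3.56% of genes. The widely expressed paralogs Actl6a, Ss18, Dpf2, Smarca5 and Chd4 took over 80% of the reads of their pairs in each of the 3 libraries.

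Other subunits of these complexes and other SNF2 ATPases, 68 genes in all, showed no call either. edgeR called 0 of the 68 at an adjusted p under 0.05 and passed 1 at an unadjusted p under 0.05, Trrap, and DESeq2 called 0. Below both controls were 26, above both 23 and between them 19, with a median log2 fold change of -0.06. Differences between the lists were not tested, and the shares of all genes tested were 31.1% below both controls and 38.0% above. Of 14 other SNF2 ATPases, 11 were below both controls and 1 above (median -0.34), and of 13 further INO80 subunits 3 were below and 7 above (median 0.41). Of the SRCAP and TIP60 subunits, 7 of 14 were below and 3 above (median -0.16), of the NuRD subunits 2 of 11 were below and 5 above (median 0.10), and of the ISWI partners 2 of 9 were below and 4 above (median 0.01). Among the 4 further BAF genes 1 was below and 1 above, and among the 3 partners of ATRX and HELLS 0 were below and 2 above.

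By the rule of the smallest p, 3 partners were named in each direction. Trrap, the scaffold of the TIP60 complex, had 163 CPM in the knockout library, against 347 and 273 CPM, a log2 fold change of -0.93 (SE 0.38, unadjusted p 0.0412, adjusted p 0.817 in edgeR). Actr6, an actin-related subunit of SRCAP, had 65.6 CPM, against 144 and 90.6 CPM, and Bcl11b, a BAF-associated zinc finger protein known in T cells and neurons, had 7.39 CPM, against 18.0 and 15.8 CPM. Both were below both controls, with adjusted p of 0.931 and 0.945 in edgeR. Cdca7, which activates Hells, had 51.6 CPM, against 26.4 and 33.3 CPM, so it was above both controls while Hells was below them. Hdac2, a deacetylase of NuRD, had 22.9 CPM, against 9.44 and 13.6 CPM, and Ino80e, an INO80 subunit, had 80.1 CPM, against 43.8 and 58.3 CPM. The adjusted p of these 3 genes lay between 0.955 and 0.959 in edgeR.

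The promoters of the members were rich in CpG sites, a feature the choice of genes did not use. Of the 40 members, 32 had a window in the RefSeq table. Their median GC content was 67.4%, against 60.0% for 7396 windowed genes at a mean of 5 CPM or more and 52.0% for all 27025 windows, and they held a median of 23.5 CG dinucleotides, against 16 and 6. The GC box GGGCGG stood in 27 of 32 (84.4%), against 60.9% and 32.9%. The TATA box stood in 1 of 32, that of Smarcd2 (3.13%), against 6.04% and 13.0%. The ETS core marked in the sequences above stood in 8 of 32 (25%), a share near the 25.2% of expressed genes and above the 12.2% of all windows. The 8 were Arid1a, Brd9, Pbrm1, Smarca2, Smarcd1, Smarcc1, Bcl7c and Chd6. The NRF1 motif stood in those of Smarca4, Smarcc1 and Smarca5, or 9.38%, against 5.10% and 2.32%, and the CCAAT box in 28.1%, against 37.2% and 34.5%.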

How the data were processed

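Per the submitters' processing notes, the reads were processed with TopHat2 2.0.12, Bowtie2 2.2.3 and HTSeq 0.6.0, and mm9 is the build named. The gene positions of 37 of the 40 members are those of GENCODE M21 on GRCm38, so that build is given. The authors deposited tables of raw read counts per gene, each with the knockout library and 1 control, and the knockout counts of the 16655 shared genes were identical in both. The authors' normalised values, fold changes and p-values were not used.

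Counts were analysed in R 4.3.3 with edgeR 4.0.16 (filterByExpr, TMM, quasi-likelihood F test, two-sided, Benjamini-Hochberg over 15236 genes), and with DESeq2 1.42.0 as an alternative. CPM were scaled by TMM, and log2 ratios of single libraries used a prior count of 2. Each SE of a fold change is its size divided by the square root of edgeR's F statistic. Exons came from GENCODE M21, and promoter windows from RefSeq. Intervals (Poisson, exact binomial) and the floor of 3 reads cover counting error only. Alternatives were other scalings, no filter on low counts, each control left out, and a lowess adjustment for GC content added after seeing the data. Fold changes are given for Arid1a and for members outside both controls by at least 0.3 on the log2 scale at a mean of 5 CPM or more, and partners by the smallest p. The members, marker and partner lists were chosen with earlier results of these data known.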

Additional observations from a re-analysis of the deposited data

How the results depend on the processing

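No remodelling gene was called by edgeR under any of the settings tried: with DESeq2 size factors, upper-quartile factors, library totals and no filter on low counts, their smallest adjusted p ranged from 0.576 to 0.850, and 1, 1, 1 and 2 members passed an unadjusted p under 0.05. Over all genes the 6 edgeR calls became 0 with DESeq2 size factors, 0 with upper-quartile factors and 0 with no filter, with 895, 818 and 948 genes at an unadjusted p under 0.05, and 223 with the DESeq2 Wald test. The cause was not tested. Scaling by library totals moved the median of all genes by more than 0.1, to 0.17 from 0.05, and with it the members above both controls to 14, those below both to 15 and their median to -0.034. Without 1 control, the median of the members ranged from -0.16 to -0.10, Arid1a from -0.92 to -0.66 and Smarca4 from 0.31 (control 6 alone) to 1.33 (control 5 alone). Adjusted for GC content, Arid1a stood at -1.12, Pbrm1's place was kept, and 17 and 8 of the 38 members were below and above both controls. The curve was fitted on genes at a mean of 5 CPM or more and carried over to lower members. Shares of all genes tested were not taken with it. The difference in paralog share of the knockout library against the controls kept its sign without either control for 7 pairs and turned for 3 that lay between the controls: Smarcc1 ranged from -0.252 to 3.08, Smarcd1 from -10.0 to 11.7 and Actl6a from -0.563 to 0.645 percentage points. No test with 1 library a side was made, for lack of residual degrees of freedom. No paired analysis was possible because the groups share no replicate number. Depth limits Bcl7c, Smarcd3, Actl6b, Dpf1 and Dpf3, each under 50 reads in every library.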
